A study of Mus musculus with 12 samples.

Results

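The mitochondrial chromosome of the mouse is a small circle of DNA, and its 13 protein-coding genes were followed here in hepatocytes before and after partial hepatectomy. The members were all rows of the count table whose gene name begins with mt-, which gave 13 of 31053 gene rows. All 13 are protein-coding. The 2 ribosomal RNA genes and 22 transfer RNA genes that the annotation also places on this chromosome are not analysed here.

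The libraries came from C57BL/6J mice aged 3 months that had received AAV8, an adeno-associated virus, through the tail vein. In the GFP mice the virus was AAV8-TBG-eGFP, and in the P16 mice it was AAV8-TBG-eGFP-P16. TBG is a promoter active in hepatocytes, so both vectors act in that cell type, and P16 is the cell cycle inhibitor encoded by Cdkn2a, a marker of senescent cells. Surgery removed 70% of the liver 1 week after injection, and hepatocytes were isolated before it (0 h) or 48 h after it, from 3 mice in each of the 4 groups. Poly(A) RNA was sequenced. All groups carry a virus and eGFP, so no uninjected liver enters any comparison. The comparisons ask how mt- transcripts differed after hepatectomy in each arm, and between the arms at each time.

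Mammalian mitochondrial DNA is transcribed from both strands into long precursors, which are cut mostly at the transfer RNAs that lie between the coding genes, and most of the released messenger RNAs receive a short poly(A) tail. The proteins they encode sit in complexes I, III and IV of the respiratory chain and in ATP synthase, each of which also needs many subunits encoded in the nucleus. Hepatocytes are rich in mitochondria, and their mitochondrial messenger RNAs are among the most abundant poly(A) transcripts of the cell.

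Libraries held 14617049 to 25409451 reads in genes. Reads in no annotated feature made up 3.62 to 9.80% of a library's counted reads. Cdkn2a, the check of the labels, had 105 to 620 reads in the P16 libraries, against 0 in 5 GFP libraries and 5 in the other. The 6 hepatocyte markers summed to 55796 to 88952 CPM (counts-per-million after TMM scaling, a correction for differences in composition between libraries). The other cell types' marker sums were at most 159 CPM (10 macrophage markers), 133 (10 endothelial), 63.6 (7 stellate), 24.1 (5 cholangiocyte) and 6.97 (7 blood). Some sums were higher at 48 h than at 0 h without overlap. In P16 mice these were macrophage markers (20.7 to 31.1 CPM at 0 h, 68.9 to 75 at 48 h), cholangiocyte markers (9.17 to 13.3, then 22.6 to 24.1), endothelial markers (52.3 to 63.1, then 63.7 to 81.9), blood markers (0.342 to 1.07, then 1.61 to 2.33) and hepatocyte markers (60564 to 67268, then 67635 to 83218). In GFP mice they were stellate markers (25.3 to 40.4, then 45.7 to 63.6) and cholangiocyte markers, whose highest value at 0 h and lowest at 48 h were both 18.6. The part of these in the comparisons over time was not tested. Replicate 1 of the P16 mice at 48 h stood apart, with 9.80% of its reads in no feature against 5.31 and 4.39% in the other P16 mice at that time and 3.62 to 3.92% in GFP mice at 48 h; the next highest share was 8.11%, in replicate 1 of the GFP mice at 0 h. The same P16 library also had 4771 unscaled CPM (counts-per-million of the reads in genes) from Gm42418, a transcript annotated over a ribosomal RNA sequence, against 1019 and 197 in its group. The part of this in the results was not tested, and the main counts and shares are given with and without it where they change.

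The sequences of the members matter for how their reads could be counted, because stretches of mitochondrial DNA have been copied into the nuclear genome. On chromosome 1 an annotated row of pseudogenes from 24611535 to 24616197 (GRCm38, minus strand, 4663 bases) repeats the middle of the mitochondrial chromosome. Its pseudogenes are identical over the aligned bases to mt-Co2 (Gm28661, 681 bases), mt-Atp6 (Gm10925, 678 bases), mt-Co3 (Gm28437, 783 bases) and mt-Nd4l (Gm10222, 294 bases). Gm28439 is identical to 876 of the 1378 bases of mt-Nd4. Gm28438 differs from mt-Nd3 at 1 of 345 aligned bases, T3C, counted from the first base of mt-Nd3. The start of both is shown, from chrM:9459-9518 on the plus strand and chr1:24613060-24613119 on the minus strand, with the differing base in capitals:
mt-Nd3: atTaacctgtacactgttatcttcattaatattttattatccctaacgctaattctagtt
Gm28438: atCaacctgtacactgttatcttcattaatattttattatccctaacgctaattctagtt
Everything after the capital is the same in both, so a read from that stretch has no base by which to place it. The reads of the nuclear copies are not analysed here.

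Members also share bases with each other. The gene mt-Atp8 (chrM:7766-7969, plus strand) encodes a small subunit of ATP synthase, and its last 43 bases, in capitals, are also the first of mt-Atp6, so reads there belong to both genes:
mt-Atp8: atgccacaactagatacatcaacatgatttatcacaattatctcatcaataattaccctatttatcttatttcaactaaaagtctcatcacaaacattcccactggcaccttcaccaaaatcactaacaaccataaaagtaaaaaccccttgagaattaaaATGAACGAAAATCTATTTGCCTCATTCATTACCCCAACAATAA
The end of mt-Nd4l (chrM:10114-10173) and the start of mt-Nd4 (chrM:10167-10226) share 7 bases on the plus strand, in capitals, which hold the stop codon of the first and the start codon of the second:
mt-Nd4l: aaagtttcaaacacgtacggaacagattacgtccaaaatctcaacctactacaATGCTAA
mt-Nd4: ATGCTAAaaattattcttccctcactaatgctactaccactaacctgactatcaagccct
The ends of mt-Nd5 (chrM:13506-13565, plus strand) and mt-Nd6 (chrM:13552-13611, minus strand) face each other and overlap by 14 bases, which are in capitals and read as reverse complements:
mt-Nd5: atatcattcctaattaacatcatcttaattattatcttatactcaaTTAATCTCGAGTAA
mt-Nd6: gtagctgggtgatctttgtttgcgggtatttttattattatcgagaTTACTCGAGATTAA
The gene mt-Nd6 is the only member on the minus strand. The strand setting of the authors' counting was not given in the sources used here, so reads of mt-Nd6 and of transcripts antisense to it may be mixed, and its values are uncertain to that extent.

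The reads were spread very unevenly over the members. The 7 genes mt-Nd1, mt-Nd2, mt-Co1, mt-Nd4, mt-Nd5, mt-Nd6 and mt-Cytb had 26186 to 1690836 reads each per library and held 99.92 to 99.95% of the mt- reads. The other 6 genes together held 0.0477 to 0.0780%. Among these, mt-Nd3 had 302 to 2078 reads, mt-Co2 121 to 440, mt-Co3 98 to 432, mt-Atp6 110 to 325, mt-Nd4l 8 to 52 and mt-Atp8 1 to 20. All of these but mt-Atp8 have near-identical annotated copies on chromosome 1. The gene mt-Atp8 lies within the copied stretch, between mt-Co2 and mt-Atp6, without an annotated copy of its own. The copies of mt-Co2 and mt-Atp6 lie 233 bases apart on chromosome 1, against 230 bases on the mitochondrial chromosome. Whether the bases between the copies match mt-Atp8 was not tested.

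Counted in windows of 50 bases, 100% of mt-Co2, 99.9% of mt-Co3, 99.5% of mt-Atp6, 98.8% of mt-Nd4l and 98.0% of mt-Nd3 were found without a difference in an annotated nuclear transcript. The shares were 62.2% for mt-Nd4, 51.1% for mt-Co1, 8.19% for mt-Nd2 and 7.61% for mt-Nd5, and 0% for mt-Nd1, mt-Nd6, mt-Cytb and mt-Atp8. Of these genes mt-Atp8 alone was sparsely counted. The genes mt-Nd4 and mt-Co1 were well counted although much of each is shared. The row for reads with several alignments holds 0 in every library of the table, with their treatment by the authors not given in the sources used here. For the 5 sparsely counted genes with shared windows, and in part for mt-Nd4 and mt-Co1, the values therefore show the reads that were assigned, and no level of the transcript can be read from them. For mt-Atp8 only annotated transcripts were searched, and its few reads allow no level either.

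**Figure D1:**
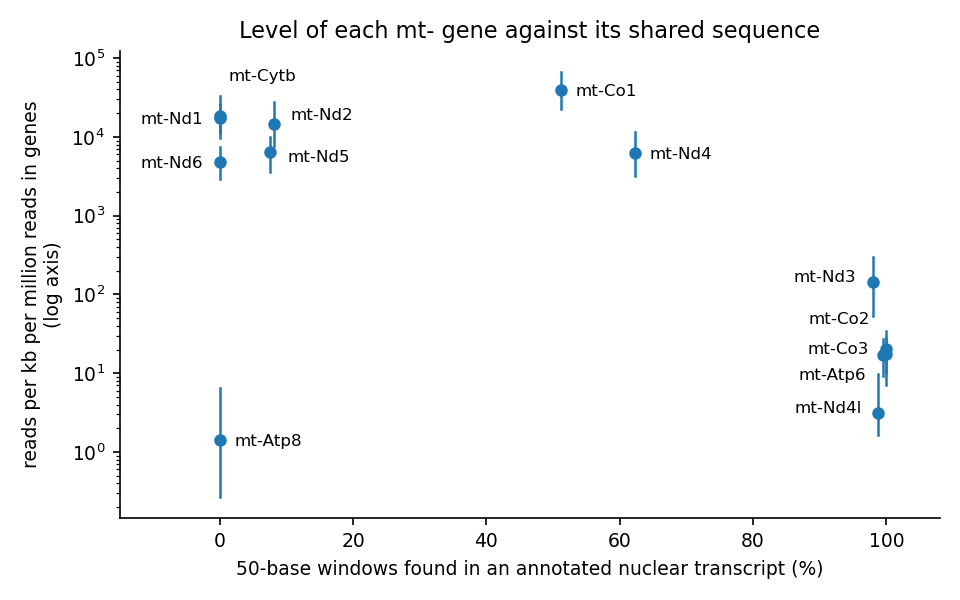
Level of each of the 13 mt- genes (vertical log axis, unscaled CPM per kb; point, median of the 12 libraries; line, lowest to highest) against the percentage of its 50-base windows found in an annotated nuclear transcript (horizontal axis). The 5 genes with 98.0% or more of their windows shared lie at the lower right, the 7 well-counted genes lie at the top, and mt-Atp8 lies alone at the lower left.

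Per length, in unscaled CPM per kb of transcript, mt-Co1 was highest in GFP mice at 0 h with 52293 ± 11024 (SD, n = 3, as for all means here). It encodes the catalytic core of complex IV. Next came mt-Cytb, the only mitochondrially encoded subunit of complex III, with 28949 ± 6441, then mt-Nd2 with 22259 ± 6210 and mt-Nd1 with 22100 ± 4989, both core membrane subunits of complex I. The SDs of these last 3 genes overlap between mice. Within each GFP library at 0 h mt-Cytb lay above mt-Nd2 and mt-Nd1, and the order of mt-Nd2 and mt-Nd1 changed between libraries. Lower were mt-Nd4 with 10244 ± 2150, mt-Nd5 with 8463 ± 1438 and mt-Nd6 with 6071 ± 616, also subunits of complex I. The SDs of mt-Nd4 and mt-Nd5 overlap, and those of mt-Nd5 and mt-Nd6 do not. Within each GFP library at 0 h mt-Nd4 lay above mt-Nd5, and mt-Nd5 above mt-Nd6. The values of mt-Co1 and mt-Nd4 cover only assigned reads, and mt-Nd6 has the strand uncertainty given above. The places of mt-Co1, mt-Nd4 and mt-Nd6 in this order are therefore uncertain.

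The 13 genes together took up a large part of every library before surgery and a smaller one after it in GFP mice. In GFP mice at 0 h the mt- reads were 14.5, 21.4 and 21.4% of the reads in genes, and at 48 h they were 9.95, 9.24 and 7.77%. In P16 mice they were 22.6, 12.9 and 16.1% at 0 h and 9.17, 14.3 and 13.6% at 48 h. The times did not overlap in GFP mice, and they overlapped in P16 mice, where 2 libraries at 48 h lay above the lowest at 0 h. The arms overlapped at both times. At 48 h the overlap came from replicate 1 of the P16 mice alone, and without it the other P16 mice lay above all GFP mice.

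As means, the share went from 19.1 ± 3.98 to 8.99 ± 1.11% in GFP mice, 2.13-fold lower at 48 h. In P16 mice it went from 17.2 ± 4.95 to 12.4 ± 2.78%, 1.39-fold lower. With 3 mice against 3 an exact permutation test cannot give a p below 0.1, so the shares are given as a description. Counting error was small beside the spread between mice, since the 95% Wilson interval of a share extends at most 0.0215 percentage points to either side. In bulk libraries a lower share of mt- reads can hold fewer mt- transcripts per cell or more nuclear transcripts, and these cannot be told apart. In 3 of the 4 groups the library with the lowest share was also the one with the most Gm42418 reads: 14.5% and 2973 unscaled CPM in GFP mice at 0 h, 12.9% and 529 in P16 mice at 0 h, and 9.17% and 4771 in P16 mice at 48 h. In GFP mice at 48 h the lowest share, 7.77%, came with the lowest Gm42418 value, 209.

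**Figure D2:**
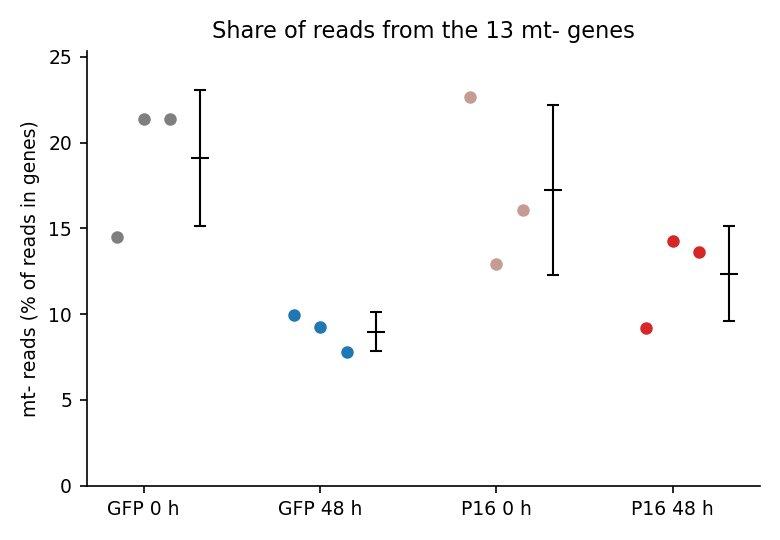
Percentage of the reads in genes that came from the 13 mt- genes (vertical axis), 1 point per mouse, with mean and SD in black, for the 4 groups. All 3 GFP mice at 48 h lie between 7.77 and 9.95%, below all 3 GFP mice at 0 h, while the P16 mice at the 2 times overlap.

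Single genes were compared with edgeR's quasi-likelihood test on TMM-scaled counts, with Benjamini-Hochberg adjustment over the 12257 genes that passed the filter on low counts. Levels below are CPM after TMM scaling, changes are log2 fold changes with their standard error (SE), and a gene is called at an adjusted p under 0.05. Of the 13 members 12 passed the filter. The exception was mt-Atp8.

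In GFP mice every tested mt- gene fell after hepatectomy, by 2.45-fold for mt-Nd1 up to 4.50-fold for mt-Nd3. Among the 7 well-counted genes the largest fall was 3.75-fold, for mt-Nd4. The others tested are the sparsely counted genes with shared windows, whose values show assigned reads only. All 12 were called lower, where 16.4% of all genes tested were, and in all 12 the groups did not overlap, where 22.5% of all genes were lower without overlap. The median of the 12 log2 fold changes was -1.65, and that of all genes was -0.01. Adjusted p lay between 3.87e-05 and 0.0125.

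Among the complex I genes, mt-Nd1 stood at 17992, 28183 and 26928 CPM at 0 h and at 10917, 10173 and 8776 CPM at 48 h in GFP mice (log2 change -1.29 ± 0.24, adjusted p = 0.00045). The values of mt-Nd2 were 18429, 32462 and 28910 CPM before and 8225, 7121 and 6551 CPM after surgery (log2 change -1.87 ± 0.26, adjusted p = 3.87e-05). Every mouse at 48 h lay below every mouse at 0 h, and the 3 mice at 48 h lay closer together. For mt-Nd4 the values were 12079, 17758 and 19043 CPM at 0 h and 5008, 4508 and 3522 CPM at 48 h (log2 change -1.91 ± 0.27, adjusted p = 4.58e-05). For mt-Nd5 they were 14018, 19066 and 20340 CPM against 7561, 6091 and 5287 CPM (log2 change -1.50 ± 0.26, adjusted p = 0.000268). Both encode proton-pumping membrane subunits, and again the 2 times were separate. The minus-strand gene mt-Nd6 stood at 3141, 3688 and 4071 CPM at 0 h and 1545, 1351 and 1220 CPM at 48 h (log2 change -1.40 ± 0.24, adjusted p = 0.000292). The sparsely counted mt-Nd3 went from 88 ± 28.4 to 19.6 ± 3.86 CPM (log2 change -2.17 ± 0.39, adjusted p = 0.00218), and mt-Nd4l from 2.02 ± 0.927 to 0.513 ± 0.142 CPM (log2 change -1.95 ± 0.57, adjusted p = 0.0125). The call of mt-Nd4l was lost without GFP replicate 2 at 0 h (adjusted p = 0.0594) and without GFP replicate 2 at 48 h (adjusted p = 0.051).

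The complex III gene mt-Cytb stood at 27866, 42650 and 44103 CPM at 0 h and 12965, 10994 and 8995 CPM at 48 h in GFP mice (log2 change -1.80 ± 0.26, adjusted p = 5.24e-05). For mt-Co1, of complex IV, the values were 70150, 94378 and 115797 CPM before and 34703, 34889 and 28801 CPM after surgery (log2 change -1.51 ± 0.25, adjusted p = 0.000164). For both genes all 3 mice at 48 h lay below the range at 0 h. The other complex IV genes were sparsely counted, mt-Co2 with 20.4 ± 5.30 and 7.37 ± 1.5 CPM (log2 change -1.47 ± 0.25, adjusted p = 0.000258) and mt-Co3 with 21.5 ± 6.25 and 5.92 ± 1.44 CPM (log2 change -1.85 ± 0.29, adjusted p = 0.000199). The ATP synthase gene mt-Atp6 went from 17 ± 3.58 to 6.11 ± 0.977 CPM (log2 change -1.47 ± 0.26, adjusted p = 0.000336). Scaled to total reads in genes in place of TMM, the median of all genes moved to 0.49 in this comparison and the 7 well-counted members to between -1.40 and -0.79, and all 12 members were still called lower.

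In P16 mice the same comparison gave estimates nearer to 0 and fewer calls. Of the 12 members 7 were called lower and none higher, where 19% of all genes tested were called lower, and 6 were lower without overlap of the times, where 24% of all genes were. The median of the 12 was -0.77, and that of all genes was 0.00. The count of 7 became 2 without P16 replicate 1 at 0 h, 3 without P16 replicate 1 at 48 h, 4 without P16 replicate 3 at 48 h and 4 with scaling to total reads. That scaling moved the median of all genes to 0.25 (log2). The calls of mt-Nd4 and mt-Cytb held under all 19 alternatives, and that of mt-Co2 was lost under 10 of them, mt-Co3 under 6, mt-Co1 under 5, mt-Nd2 under 2 and mt-Atp6 under 1. Without P16 replicate 1 at 0 h all 5 of these calls were lost.

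The complex I gene mt-Nd1 did not pass in P16 mice: it stood at 26134, 15231 and 19279 CPM at 0 h and 11856, 21782 and 17524 CPM at 48 h (log2 change -0.25 ± 0.24, adjusted p = 0.439). The values of mt-Nd2 were 30401, 16737 and 21125 CPM before and 8915, 16026 and 13202 CPM after surgery (log2 change -0.84 ± 0.25, adjusted p = 0.0154). The 2 times overlapped for mt-Nd1 and were separate for mt-Nd2. For mt-Nd4 they were 18236, 10096 and 12156 CPM against 4733, 8957 and 7304 CPM (log2 change -0.95 ± 0.26, adjusted p = 0.00888). For mt-Nd5 the values were 21075, 11752 and 13400 CPM against 6894, 13132 and 10014 CPM (log2 change -0.62 ± 0.25, adjusted p = 0.0613). Replicate 1 was the highest mouse at 0 h and, as another mouse, replicate 1 was the lowest at 48 h for each of these genes. The gene mt-Nd6 stood at 4488, 2678 and 2864 CPM at 0 h and 1538, 3141 and 2168 CPM at 48 h (log2 change -0.55 ± 0.24, adjusted p = 0.0781). Neither sparsely counted complex I gene passed, mt-Nd3 with 68.2 ± 15.8 and 40.9 ± 19.9 CPM (log2 change -0.74 ± 0.37, adjusted p = 0.153) and mt-Nd4l with 2.22 ± 1.26 and 0.969 ± 0.4 CPM (log2 change -1.19 ± 0.55, adjusted p = 0.0954).

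In P16 mice mt-Cytb stood at 42640, 25041 and 28097 CPM at 0 h and 11243, 21322 and 16891 CPM at 48 h (log2 change -0.95 ± 0.26, adjusted p = 0.00728). For mt-Co1 the values were 119717, 65056 and 77385 CPM before and 37656, 66544 and 55251 CPM after surgery (log2 change -0.72 ± 0.25, adjusted p = 0.0293). Both fell. The times were separate for mt-Cytb and overlapped for mt-Co1, where replicate 2 at 48 h lay above replicate 2 at 0 h. Among the sparsely counted genes mt-Co2 (log2 change -0.65 ± 0.25, adjusted p = 0.0467), mt-Co3 (log2 change -0.80 ± 0.29, adjusted p = 0.0387) and mt-Atp6 (log2 change -0.94 ± 0.26, adjusted p = 0.0089) were called lower.

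**Figure D3:**
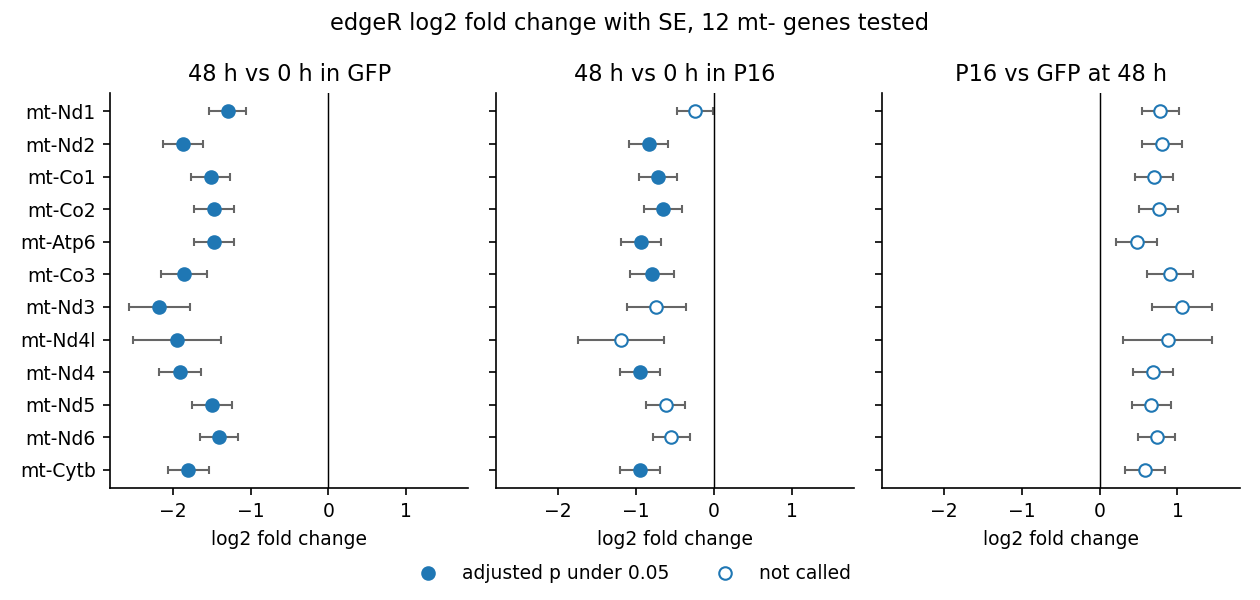
Log2 fold change (horizontal axis) with its SE for the 12 mt- genes tested, in chromosome order from top to bottom, in 3 comparisons. Filled points were called at an adjusted p under 0.05: all 12 at 48 h against 0 h in GFP mice, 7 in P16 mice, and 0 in the arms at 48 h, where all 12 lie above 0.

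Whether the response differed between the arms was tested by the interaction, the change in P16 mice less that in GFP mice. All 12 estimates were positive, from 0.53 for mt-Atp6 to 1.43 for mt-Nd3, both sparsely counted. The 7 well-counted genes lay between 0.79 for mt-Co1 and 1.05 for mt-Nd1. None of the 12 was called (adjusted p 0.202 to 0.767), where 0.0979% of all genes tested were called in either direction. At an unadjusted p under 0.05 there were 10 of the 12 members, and 1451 of all 12257 genes tested. DESeq2 called 1 of the 12, mt-Nd3 (adjusted p = 0.0444), and over its 11779 genes it called 116 higher and 109 lower. Limma-voom called 0 of the 12. The lowest adjusted p belonged to mt-Nd1 (log2 change 1.05 ± 0.33, adjusted p = 0.202). A smaller fall in P16 mice is therefore an estimate that did not pass the test across all genes.

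Between the arms at 48 h, all 12 mt- genes had higher mean levels in P16 than in GFP mice, by 1.39-fold for mt-Atp6 to 2.08-fold for mt-Nd3, and none was called. Of all genes tested 1.24% were called higher. In 5 members (mt-Nd1, mt-Nd2, mt-Co1, mt-Co2 and mt-Co3) all P16 mice lay above all GFP mice, and 14.8% of all genes tested were higher without overlap. Of these 5, mt-Co2 and mt-Co3 were sparsely counted. For mt-Co3 the nearest values were 7.46 CPM (P16 replicate 1) and 7.43 CPM (GFP replicate 1). Without P16 replicate 1 at 48 h all 12 were higher without overlap, and 22.3% of all genes were. At an unadjusted p under 0.05 there were 10 of the 12, and 2142 of all 12257 genes tested. Adjusted p of the 12 lay between 0.0882 and 0.476. The median of the 12 was 0.75, and that of all genes was 0.00.

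The mean of mt-Nd1 at 48 h was 9955 ± 1087 CPM in GFP mice against 17054 ± 4980 CPM under P16 (log2 change 0.78 ± 0.24, adjusted p = 0.0882). For mt-Cytb it was 10985 ± 1985 against 16486 ± 5052 CPM (log2 change 0.59 ± 0.25, adjusted p = 0.238), and for mt-Co1 32798 ± 3463 against 53150 ± 14558 CPM (log2 change 0.70 ± 0.25, adjusted p = 0.143). The P16 mice were more spread than the GFP mice in each of these genes, and replicate 1 was the lowest of them. The estimates for mt-Nd2 (0.80), mt-Nd4 (0.69), mt-Nd5 (0.67), mt-Nd6 (0.73), mt-Co2 (0.76), mt-Co3 (0.90) and mt-Nd4l (0.87) lay between those of mt-Cytb and mt-Nd3. Without that replicate 5 members were called higher, namely mt-Nd1, mt-Nd2, mt-Co3, mt-Nd3 and mt-Nd6. Of all 12577 genes tested in that fit 229 were called higher. DESeq2 called 5 members higher, where 402 of 11779 genes were. The fit of these 2 groups alone called 3, where 424 of 11875 genes were called higher. The fit with no filter on low counts called 2, where 285 of 18366 genes were. Limma-voom called 0, where 187 of 12257 genes were. Scaling to total reads moved the median of all genes to -0.22 and the 7 well-counted members to between 0.34 and 0.56.

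Before surgery the estimates between the arms were nearer to 0. At 0 h the log2 changes of the 12 members lay between -0.37 for mt-Nd3 and 0.11 for mt-Nd4l, none was called by edgeR, DESeq2 or limma-voom, and none reached an unadjusted p under 0.05 with edgeR. Of all genes tested edgeR called 0.22% in either direction, and 1652 of 12257 reached an unadjusted p under 0.05. The estimates for mt-Nd1 (log2 change -0.27 ± 0.24, adjusted p = 0.661), mt-Nd4 (log2 change -0.27 ± 0.26, adjusted p = 0.69) and mt-Cytb (log2 change -0.26 ± 0.25, adjusted p = 0.704) were about 1 SE below 0. Those for mt-Nd2 (-0.23), mt-Co1 (-0.10), mt-Nd5 (-0.21), mt-Nd6 (-0.12), mt-Co2 (-0.06), mt-Co3 (-0.15) and mt-Atp6 (-0.06) were smaller than their SE. The groups overlapped for every member tested, while 7.6% of all genes were higher and 6.84% lower without overlap. Averaged over both times, the difference between the arms was 0.16 to 0.49, and 0.16 to 0.31 in the 7 well-counted genes. By edgeR 0 members were called and 0 reached an unadjusted p under 0.05, and 0 were called by DESeq2 and limma-voom. Of all genes edgeR called 3.29%, and 2333 of 12257 reached an unadjusted p under 0.05.

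Within the mt- reads the balance between the genes shifted after hepatectomy, which a share among themselves shows independently of the scaling to nuclear genes. The share of mt-Nd1 was 11, 11.8 and 10.4% of mt- reads in GFP mice at 0 h and 13.5, 13.5 and 13.9% at 48 h. In P16 mice it was 9.94, 10.4 and 11.1% at 0 h and 14.3, 14.4 and 14.3% at 48 h. In both arms every mouse at 48 h lay above every mouse at 0 h, and at 48 h all P16 mice lay above all GFP mice. The shares of the members are linked, since together they make up the whole of the mt- reads, and they were not tested.

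The share of mt-Cytb was 17, 17.9 and 17% in GFP mice at 0 h and 16, 14.6 and 14.2% at 48 h. In P16 mice it was 16.2, 17.1 and 16.1% at 0 h and 13.6, 14.1 and 13.8% at 48 h. The gene thus lay lower at 48 h in both arms without overlap, and at 48 h lower in P16 than in GFP mice without overlap. The ratio of mt-Nd1 to mt-Cytb reads was 0.608 to 0.686 in the 6 libraries at 0 h, 0.842 to 0.976 in GFP mice at 48 h and 1.02 to 1.05 in P16 mice at 48 h.

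The share of mt-Nd4 went from 7.39 ± 0.0548 to 5.92 ± 0.313% in GFP mice and from 6.93 ± 0.044 to 5.87 ± 0.138% in P16 mice. It was lower at 48 h in both arms without overlap, and at 0 h also lower in P16 than in GFP mice. The share of mt-Nd2 was 11.3, 13.6 and 11.1% at 0 h and 10.2, 9.47 and 10.4% at 48 h in GFP mice, and 11.6, 11.4 and 12.1% and 10.8, 10.6 and 10.8% in P16 mice, again without overlap of the times. At 48 h the share of mt-Nd2 was also higher in P16 than in GFP mice without overlap. For mt-Co1, the member with the most reads, the times overlapped, with 42.4 ± 2.56 and 45 ± 1.86% in GFP mice and 44.8 ± 0.686 and 44.9 ± 0.719% in P16 mice. For mt-Nd6 all groups overlapped, between 1.55 and 2.08%, and mt-Nd5 lay between 7.68 and 9.34% with a gap between the times in P16 mice only. The ratio of mt-Nd1 to mt-Nd2, which lie next to each other apart from transfer RNAs and have no and few shared windows, was 0.860 to 0.976 at 0 h and 1.33 to 1.43 at 48 h.

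**Figure D4:**
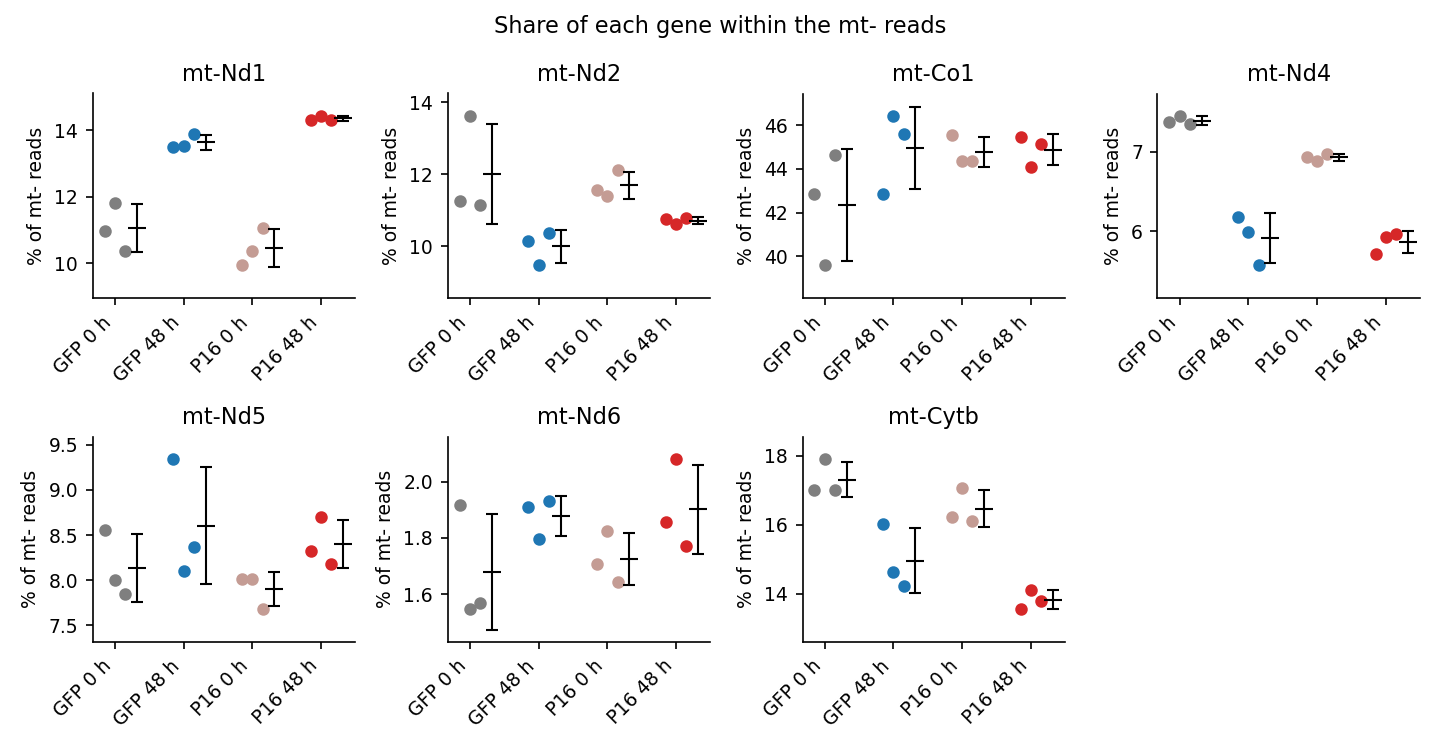
Share of each of the 7 well-counted genes within the mt- reads of a library (vertical axes in %, each with its own range that does not start at 0), 1 point per mouse, with mean and SD in black. At 48 h mt-Nd1 lies above its 0 h values in both arms, mt-Nd2, mt-Nd4 and mt-Cytb lie below theirs, and mt-Co1 overlaps.

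The nuclear genes whose products complete the same complexes had smaller changes in GFP mice than the mt- genes. The 77 nuclear subunits tested were those of complexes I to IV and ATP synthase, with the ATP synthase inhibitor Atpif1 counted among them. Of the 77, 29 fell and 2 rose in GFP mice after hepatectomy, where 16.4% of all genes were called lower and 17.2% higher. Their median log2 change was -0.26. Of the 29 that fell, 14 were among the 35 genes of complex I, 6 among the 13 of complex IV, 5 among the 16 of ATP synthase, 3 among the 9 of complex III and 1 among the 4 of complex II. In P16 mice 22 fell and 3 rose, where 19% were called lower and 19.6% higher, with a median of -0.28. Without complex II, 28 of 73 fell and 2 rose in GFP mice, and 21 fell and 3 rose in P16 mice, with the same medians. In GFP mice no nuclear subunit fell as far as any tested mt- gene: the lowest, Ndufb9 of complex I, was at -0.88, adjusted p = 0.0273, and the mt- genes began at -1.29. In P16 mice the lowest was the weakly expressed Ndufb2 at -1.47, adjusted p = 0.0172, and the ranges overlapped. Other subunits that fell in GFP mice were Cox6c (-0.70, adjusted p = 0.00398) and Cox4i1 (-0.62, adjusted p = 0.00216) of complex IV, and Uqcr11 of complex III (-0.70, adjusted p = 0.00365). In the succinate dehydrogenase of complex II, which has no mitochondrially encoded subunit, Sdhb fell in both arms (-0.47, adjusted p = 0.0351 in GFP, and -0.63, adjusted p = 0.00544 in P16 mice). Atpif1, an inhibitor of ATP synthase, rose in both (1.08, adjusted p = 0.0195, and 1.03, adjusted p = 0.019).

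These counts depend on scaling and on single libraries. Scaling to total reads moved the median of all genes to 0.49 in GFP mice, where 45.1% of all genes were then called higher and 5.46% lower, and to 0.25 in P16 mice, where 29.7% were called higher and 10.8% lower. With it 0 nuclear subunits fell and 24 rose in GFP mice, and 4 fell and 6 rose in P16 mice. In GFP mice the 29 became 11, 42 and 12 without replicate 1, 2 or 3 at 0 h, and 14, 17 and 15 without replicate 1, 2 or 3 at 48 h. In P16 mice the 22 became 7 without replicate 2 at 0 h, 10 without replicate 1 at 48 h and 8 without replicate 3 at 48 h. Between the arms at 48 h 4 subunits were called higher in P16 mice, Uqcr11 (0.70, adjusted p = 0.0373), Ndufs6 (0.62, adjusted p = 0.0486), Ndufa7 (0.62, adjusted p = 0.0373) and Atp5e (0.73, adjusted p = 0.0469), and the median of the 77 was 0.39. Of all genes tested 1.24% were called higher there. The count of 4 at 48 h was 0 without any 1 of the 3 GFP mice at 48 h, without P16 replicate 2 at 48 h or without GFP replicate 3 at 0 h, 1 without P16 replicate 3 at 48 h, 2 without P16 replicate 1 or 3 at 0 h, 10 without P16 replicate 1 at 48 h and 29 without GFP replicate 2 at 0 h. In these last 2 fits 229 of 12577 and 397 of 12549 of all genes tested were called higher. At 0 h 0 of the 77 were called by edgeR, with 29 at an unadjusted p under 0.05 and a median of 0.29. Of all 12257 genes tested at 0 h, 0.22% were called in either direction and 1652 were at an unadjusted p under 0.05.

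Averaged over both times, 24 of the 77 nuclear subunits were called higher in P16 mice and 0 lower, where 2.22% of all genes tested were called higher, and their median was 0.34. The largest change of each complex was that of Atp5o of ATP synthase (0.77, adjusted p = 0.00961), Uqcr11 of complex III (0.57, adjusted p = 0.0176), Ndufa1 of complex I (0.56, adjusted p = 0.0236) and Cox7c of complex IV (0.51, adjusted p = 0.0255), among those called. The count of 24 became 5, 1 and 4 without GFP replicate 1, 2 or 3 at 48 h, and 3 and 14 without P16 replicate 2 or 3 at 48 h. Without a library at 0 h it became 37 (GFP replicate 1), 12 (GFP replicate 3), 10 (P16 replicate 1) and 11 (P16 replicate 2). With scaling to total reads it was 12, where 114 of all 12257 genes were called higher. Over all genes tested, 396 of 12598 were called higher without GFP replicate 1 at 0 h, and 77 of 12558 without GFP replicate 2 at 48 h.

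**Figure D5:**
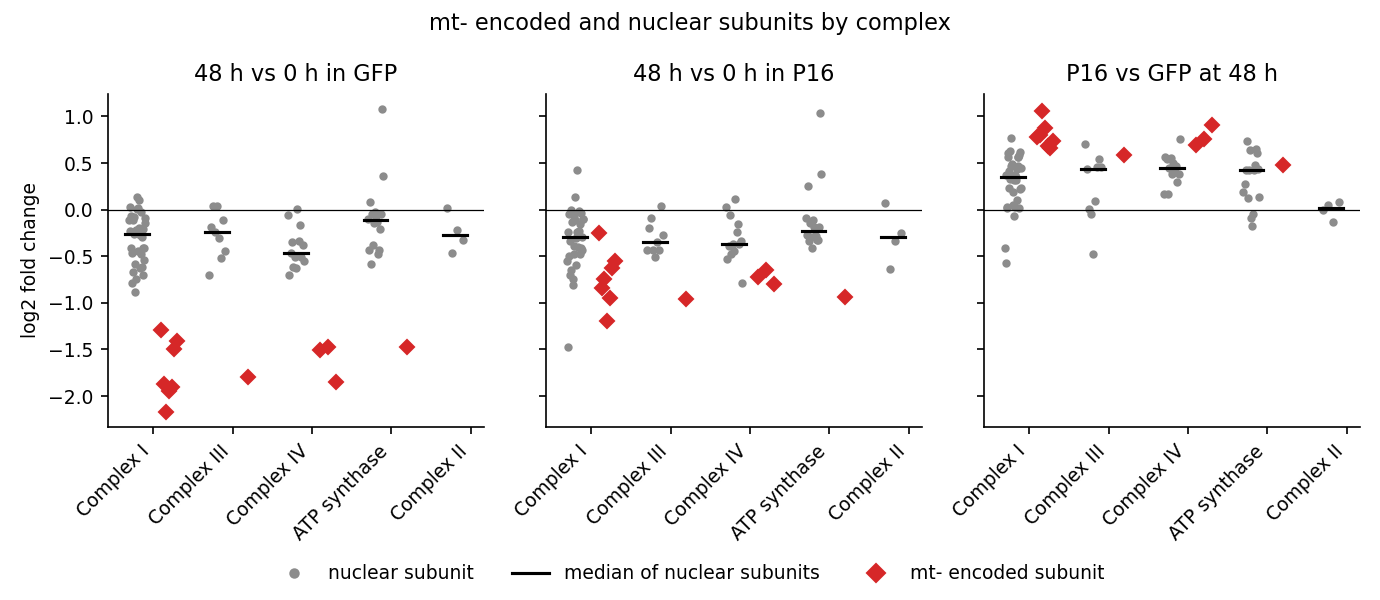
Log2 fold change (vertical axis) of the nuclear subunits (grey points, with their median as a black line) and of the mt- encoded subunits tested (red diamonds) of each complex, in 3 comparisons. In GFP mice at 48 h against 0 h the mt- encoded subunits, from -1.29 downward, lie below all nuclear ones, and in P16 mice the 2 kinds overlap.

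The machinery that copies, transcribes, processes and translates mitochondrial DNA had genes called in both directions, as all genes tested did. With TMM scaling its shares called over time were below those of all genes, in both arms and both directions. Of 165 nuclear genes tested from this list, 22 rose and 18 fell in GFP mice after hepatectomy, with a median log2 fold change of -0.02, where 17.2% of all genes were called higher and 16.4% lower. In P16 mice 16 rose and 26 fell, with a median of -0.02, where 19.6% of all genes were called higher and 19% lower. With scaling to total reads, which moves the median of all genes upward as given above, 99 were called higher and 2 lower in GFP mice and 44 and 8 in P16 mice. The 22 became 13 or 14 without GFP replicate 2 at 0 h or any 1 of the GFP mice at 48 h, and the 18 became 7 to 11 without GFP replicate 1 or 3 at 0 h or any 1 of the GFP mice at 48 h. The 16 became 8 to 10 without P16 replicate 1 or 3 at 0 h or replicate 2 at 48 h, and the 26 became 13 to 17 without P16 replicate 2 or 3 at 0 h or replicate 1 or 3 at 48 h. Averaged over both times 4 of the 165 were called higher in P16 than in GFP mice, a share close to the 2.22% of all genes. They were the mitoribosomal genes Mrps11, Mrpl54, Mrpl58 and Mrpl33, with log2 changes of 0.46, 0.42, 0.41 and 0.38. That count was 11 without GFP replicate 1 at 0 h or P16 replicate 1 at 48 h and 0 to 2 without any other single library. Over all genes tested, 396 of 12598 were called higher without that GFP library and 358 of 12577 without that P16 library. Between the arms 0 of the list were called by edgeR at either single time, with 19 at an unadjusted p under 0.05 at 0 h and 30 at 48 h. Of all 12257 genes tested 1652 were at an unadjusted p under 0.05 at 0 h and 2142 at 48 h. At 48 h up to 5 of the list were called higher with 1 library left out, the 5 without GFP replicate 2 at 0 h. In that last fit 397 of all 12549 genes tested were called higher.

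Among the regulators, Pprc1, a coactivator of nuclear genes for mitochondria, rose from 6.59 ± 2.60 to 14.2 ± 0.888 CPM in GFP mice (1.09, adjusted p = 0.00297) and from 3.46 ± 1.26 to 15 ± 1.22 CPM in P16 mice (2.10, adjusted p = 8.87e-06). Sirt3, a mitochondrial deacetylase, fell in both (-0.86, adjusted p = 5.29e-05, and -0.93, adjusted p = 1.93e-05). The coactivators Ppargc1b (-1.92, adjusted p = 0.00055) and Ppargc1a (-0.95, adjusted p = 0.0339) were called lower in P16 mice, and the interaction was not called for any gene of the list. In the handling of mitochondrial RNA, Hsd17b10, a subunit of mitochondrial RNase P, fell in both arms (-0.64, adjusted p = 0.00491, and -0.79, adjusted p = 0.00077), as did Fastkd1, an RNA-binding protein of mitochondria (-0.84, adjusted p = 0.000555, and -0.71, adjusted p = 0.00218). Mrm1, a methyltransferase of mitochondrial ribosomal RNA, fell in GFP mice (-1.41, adjusted p = 0.00984), and in P16 mice Pde12, which removes poly(A) tails from mitochondrial RNA, rose (0.90, adjusted p = 0.00222) and Trit1, a modifier of transfer RNAs, fell (-0.82, adjusted p = 0.00138). The accessory subunit of the mitochondrial DNA polymerase, Polg2, fell in P16 mice (-1.50, adjusted p = 0.00173), as did the transcription factors Mterf1a (-1.71, adjusted p = 0.00911) and Tfb2m (-0.51, adjusted p = 0.0128). In GFP mice the mitochondrial exonuclease Mgme1 rose (0.70, adjusted p = 0.00479). In translation, the elongation factor Gfm1 rose in GFP mice (0.62, adjusted p = 0.00119) and the mitoribosomal proteins Mrps6 (0.88, adjusted p = 0.00862, and 1.18, adjusted p = 0.000885) and Mrpl13 (0.72, adjusted p = 0.000155, and 0.76, adjusted p = 7.85e-05) rose in both arms.

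The transfer RNA synthetase gene Lars2 had the largest change of the list in GFP mice (-2.52, adjusted p = 0.0323). Its unscaled CPM were 4236, 2180 and 1355 in GFP mice at 0 h and 511, 717 and 666 at 48 h, and 997, 1880 and 982 in P16 mice at 0 h and 6465, 1877 and 773 at 48 h. The library highest in Lars2 was also the highest in Gm42418 in GFP mice at 0 h, P16 mice at 0 h and P16 mice at 48 h, but not in GFP mice at 48 h, and the part of this in the value of Lars2 was not tested. The synthetase gene Nars2 fell in both arms (-0.97, adjusted p = 0.00051, and -0.78, adjusted p = 0.00306).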

How the data were processed

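Hepatocyte poly(A) RNA from 12 mice was analysed. The values deposited by the authors are raw counts, whole numbers of reads for each gene. Trim Galore, STAR 2.5.0c, SAMtools, Picard, HTSeq and mm10 are named, per the submitters' processing notes; settings, read length and annotation release were not found in the labels. Positions and sequences came from GENCODE vM21 transcripts of GRCm38. Windows of 50 bases were matched to its annotated nuclear transcripts in place of the genome. Each library had 14617049 to 25409451 reads in genes. Rows that name no gene (3.62 to 9.80% of reads in no feature, 4.87 to 8.80% ambiguous) stayed out of library sizes and tests. Libraries of a group differed beyond counting noise (chi-square per degree of freedom at least 14.6).

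Tests used edgeR 4.0.16 in R 4.3.3 (quasi-likelihood, TMM, filterByExpr, robust) with 1 mean for each of the 4 groups. The SE is the size of the log2 change divided by the square root of F, and ± after a log2 change is this SE. DESeq2 1.42.0, limma-voom (limma 3.58.1), other scalings, filters and left-out libraries were alternatives, and the fit was tested on simulated data. All members are named; genes of the nuclear lists were named from the up to 4 called genes with the largest changes in each list and comparison, and not all of these are printed. Gm42418 was chosen after its values were seen, as were window lengths of 75 and 100 bases and the overlap at 48 h without P16 replicate 1. The members and lists were chosen with earlier results of these data known. Intervals cover counting error only.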

Additional observations from a re-analysis of the deposited data

How the results depend on the processing

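In GFP mice the count of members lower after hepatectomy was 12 under every other test, scaling and filter tried and 11 to 12 with single libraries left out; in P16 mice it was 4 with scaling to total reads, 5 to 9 under the other settings and 2 to 10 with libraries left out. Between the arms at 48 h the count higher was 5 with DESeq2, 2 with no filter, 3 with the 2 groups only and 0 to 5 with libraries left out, and the interaction gave 1 with DESeq2. The difference in mt- share between the arms at 0 h, -1.88 percentage points, ranged from -4.59 to 0.268 and turned positive without P16 replicate 2. The other shares kept their direction with libraries left out (-12.4 to -8.96 points over time in GFP mice, -7.01 to -2.15 in P16 mice, and 2.40 to 4.96 between the arms at 48 h). With other denominators they were -12.9 to -8.58, -5.95 to -4.54 and 2.65 to 4.20 points.

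For the expression list, total reads gave 2 lower between the arms at 48 h, 99 higher and 2 lower over time in GFP mice, and 44 and 8 in P16 mice. Left-out libraries gave 0 to 1 lower at 0 h, 0 to 5 higher at 48 h, 13 to 23 and 7 to 20 in GFP, and 8 to 19 and 13 to 27 in P16 mice. For the nuclear subunits, total reads gave 0 higher and 2 lower at 48 h, 24 and 0 in GFP, and 6 and 4 in P16 mice; left-out libraries gave 0 to 5 higher at 0 h, 0 to 29 higher and 0 to 1 lower at 48 h, 0 to 2 and 11 to 42 in GFP, and 0 to 3 and 7 to 31 in P16 mice. Averaged over times, total reads gave 12 nuclear subunits higher, and 0 genes of the expression list higher and 1 lower; left-out libraries gave 1 to 37 subunits higher, and 0 to 11 of the expression list higher and 0 to 1 lower. The causes were not tested.

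With the replicate number as a block the members lower were 12 in GFP and 5 in P16 mice, and nuclear subunits higher were 0 at 48 h, 1 in GFP mice and 9 averaged over times, where 0 of the expression list were higher. Same-numbered libraries did not deviate together (18 pairs, r from -0.072 to 0.0591, 0 above 0.1). The meaning of the numbers was not found in the labels, and low correlations cannot exclude that they pair mice. At most 52 reads a library in mt-Nd4l and 20 in mt-Atp8 limit what those genes can show. With windows of 100 bases in place of 50 the shared part fell from 51.1 to 30.8% in mt-Co1 and stayed at 97.6% or more in the 5 sparsely counted genes with copies.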

Other observations

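The gene mt-Atp8, too sparsely counted to be tested, had 5, 2 and 4 reads in GFP mice at 0 h, 8, 13 and 20 in P16 mice at 0 h, 3, 2 and 1 in GFP mice at 48 h and 1, 8 and 8 in P16 mice at 48 h. Before surgery all P16 mice lay above all GFP mice, on at most 20 reads. The ratio of mt-Nd1 to mt-Nd4 reads was 1.41 to 1.59 at 0 h, 2.18 to 2.49 in GFP mice at 48 h and 2.40 to 2.5 in P16 mice at 48 h. The times were separate in both arms, and the arms overlapped at 48 h.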
